A study of Mus musculus with 15 samples.

Results

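The genes described here are 37 members of 5 multigene families best known from tissues other than blood: the pregnancy-specific glycoproteins (Psg), the type 2 vomeronasal receptors (Vmn2r), the cysteine-rich secretory proteins (Crisp), the calcium-activated chloride channel regulators (Clca) and the Trim43 genes. They were chosen from the 148 named genes of these families among the 23359 genes of the authors' files, as those with an FPKM of 0.1 or more in at least 1 group. FPKM is a gene's fragment number after correction for gene length and sequencing depth. The rule kept 12 of 13 Psg, 15 of 122 Vmn2r, 3 of 4 Crisp, 4 of 6 Clca and 3 of 3 Trim43 genes. An FPKM of 0.1 or more was reached by 61.9% of all genes. The members just inside the limit, by their highest FPKM, were Vmn2r95 at 0.169, Vmn2r99 at 0.170 and Vmn2r29 at 0.177. Those just outside were Vmn2r92 at 0.0811, Vmn2r104 at 0.0775 and Vmn2r124 at 0.0724.

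Psg genes are relatives of the Ceacam genes, and encode secreted glycoproteins made by the trophoblast of the placenta. Vmn2r genes encode pheromone receptors of sensory neurons in the vomeronasal organ, Crisp genes encode secreted proteins of the male reproductive tract and salivary glands, and Clca genes encode secreted proteins of epithelia and vessels that act on chloride conductance. Trim43 genes encode RING-finger proteins known from the early cleavage stages of the embryo. Psg16 and Vmn2r29 lie more than 1 Mb from any other member, with Psg29 and Vmn2r30, relatives under the limit, near them. The other members lie in clusters of related genes. A read from 1 copy can match another where the copies share sequence. Between coding sequences of related members, sharing ran from none of a gene's 50-base windows (Clca3 and Crisp2) to nearly all of them (Vmn2r21). Untranslated bases and relatives under the limit were not searched.

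The cells were leukemia stem cells (LSC) of mice with a blast-crisis form of chronic myeloid leukemia, modelled by putting the human oncogenes BCR-ABL and NUP98-HOXA9 into the same cells. LSC came from 4 sites, the gonadal adipose tissue (AT), the blood (BL), the spleen (SPL) and the bone marrow (BM), of mice 12 days after they received leukemia cells. The comparison group was the normal counterpart of these cells from normal bone marrow (NBM), to which the labels give the same strain text as to the LSC. All mice were female and 3 months old, and RNA of every group was sequenced in 3 libraries (15 in all). The authors deposited 1 pooled value per gene and group, with bounds of 2 standard deviations, so no value of a single library can be shown. Whether a group's 3 libraries were separate mice is not stated in the labels, which also give no sort gate. The p-values of the authors may therefore measure only technical spread.

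The pooled columns held 8.96e+06 (SPL) to 1.96e+07 (AT) estimated counts, the fragments assigned to genes. The 37 members took 0.0097% of them in NBM, 0.310% in BM, 0.142% in SPL, 0.373% in BL and 0.205% in AT. All 8 stem and progenitor markers looked at (Kit, Cd34, Meis1, Hoxa9, Hoxa10, Myb, Gata2 and Flt3) reached an FPKM of 1 or more in at least 1 group. Their sum was 67.5 FPKM in NBM, 59.1 in BM, 42.3 in SPL, 22.4 in BL and 21.4 in AT. Cd34 alone gave 40.0 of the sum in NBM and 7.92 in BL, and single genes differed. Gata2 went from 1.78 in NBM to 10.9 in BM and Hoxa9 from 0.771 to 3.65. Against NBM, 3 of the 8 were higher and 1 lower in BM, and 3 higher and 3 lower in SPL (authors' deposited table, Cuffdiff q below 0.05). In BL and in AT, 1 was higher and 4 lower than in NBM there. Of the 8, 4 were lower in BL than in BM and 5 lower in AT than in BM in the authors' deposited table (Cuffdiff q below 0.05), and none was higher. Myb, a transcription factor of progenitors, went from 2.51 in BM to 0.255 in BL. T cell markers (Cd3e, Cd3g, Cd2 and Lck) summed to 63.6 FPKM in NBM against 4.82 to 15.5 in the LSC groups, and stromal markers to 28.7 in AT against 0.193 to 1.58 elsewhere. The B cell gene Ms4a1 was at 1.17 in NBM, 0.0942 in BM, 3.22 in SPL, 0.609 in BL and 0.0111 in AT. The stem and progenitor sum moves with every comparison of BL or AT with BM, SPL or NBM. The T cell sum moves with every comparison against NBM, and the stromal sum with every comparison of AT. Ms4a1 moves with SPL against BM, BL and AT, and also with BL against BM and AT and NBM against BM and AT. Of 4 B cell genes, 3 were higher in BL than in BM, and 3 lower in AT than in BL, in the authors' deposited table (Cuffdiff q below 0.05). Against NBM, 3 were lower in BM, 1 in BL and 3 in AT there. The part of all these marker genes' cells in the members' values was not tested. In such bulk samples, a change in the number of cells of a type and a change in RNA per cell cannot be told apart.

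How far the copies can be separated by sequence bears on every value that follows, so the first 120 coding bases of the leading members are shown, read 5′ to 3′ from GENCODE transcripts on GRCm38 (mm10). Capitals mark bases that differ from the first gene named in each group of lines. Crisp1 (chr17:40293758-40319207, minus strand) and Crisp3 (chr17:40221777-40242258, minus strand) led by level. They differed at 8 of these bases.

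Crisp1: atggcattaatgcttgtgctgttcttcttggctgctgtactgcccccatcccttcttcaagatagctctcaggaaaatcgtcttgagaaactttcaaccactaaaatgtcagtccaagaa
Crisp3: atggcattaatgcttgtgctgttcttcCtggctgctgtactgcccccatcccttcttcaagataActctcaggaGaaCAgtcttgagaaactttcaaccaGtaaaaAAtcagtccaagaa

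Vmn2r26 (chr6:124024758-124062035, plus strand) and Vmn2r25 (chr6:123822814-123853190, minus strand) were the highest of the vomeronasal receptors. Vmn2r19 (chr6:123308333-123336537, plus strand), at the other end of the cluster, was the lowest of those next to them. Vmn2r25 differed from Vmn2r26 at 3 bases and Vmn2r19 at 22.

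Vmn2r26: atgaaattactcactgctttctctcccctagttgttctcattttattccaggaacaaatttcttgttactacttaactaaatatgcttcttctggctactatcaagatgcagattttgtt
Vmn2r25: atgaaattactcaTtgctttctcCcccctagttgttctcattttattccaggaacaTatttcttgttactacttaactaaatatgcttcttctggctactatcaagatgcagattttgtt
Vmn2r19: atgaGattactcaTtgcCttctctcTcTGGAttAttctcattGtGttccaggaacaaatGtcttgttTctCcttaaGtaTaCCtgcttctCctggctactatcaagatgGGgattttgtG

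Psg17 (chr7:18813937-18821591, minus strand), Psg26 (chr7:18474582-18484149, minus strand) and Psg23 (chr7:18606343-18616501, minus strand) stand for the Psg genes, because the level of Psg23 was near that of Psg17 in BL and well below it in NBM, BM and SPL. Psg26 differed from Psg17 at 11 bases and Psg23 at 29.

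Psg17: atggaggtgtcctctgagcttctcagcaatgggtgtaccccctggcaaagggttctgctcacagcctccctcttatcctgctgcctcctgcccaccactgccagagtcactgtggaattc
Psg26: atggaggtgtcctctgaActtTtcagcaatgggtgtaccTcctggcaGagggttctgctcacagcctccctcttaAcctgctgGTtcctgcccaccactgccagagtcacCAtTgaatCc
Psg23: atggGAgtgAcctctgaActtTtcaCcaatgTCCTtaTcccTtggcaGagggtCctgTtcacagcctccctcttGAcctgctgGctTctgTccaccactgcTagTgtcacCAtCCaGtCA

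The 3 Clca genes that moved together, Clca1 (chr3:144730316-144760739), Clca2 (chr3:144796559-144819494) and Clca4 (chr3:144822624-144849302), all on the minus strand, began almost alike. No base differed between Clca1 and Clca2, and 1 between Clca1 and Clca4.

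Clca1: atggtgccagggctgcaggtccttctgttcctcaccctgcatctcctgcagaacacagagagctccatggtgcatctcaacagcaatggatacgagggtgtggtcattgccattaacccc
Clca2: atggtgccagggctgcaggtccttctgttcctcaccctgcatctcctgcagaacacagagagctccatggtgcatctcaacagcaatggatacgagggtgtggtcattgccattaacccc
Clca4: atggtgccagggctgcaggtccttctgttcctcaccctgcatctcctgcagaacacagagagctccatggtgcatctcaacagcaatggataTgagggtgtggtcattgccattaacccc

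Trim43a (chr9:88581036-88588819, plus strand), Trim43b (chr9:89084624-89092835, minus strand) and Trim43c (chr9:88839164-88858870, plus strand) differed at 2 and 3 bases from the first.

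Trim43a: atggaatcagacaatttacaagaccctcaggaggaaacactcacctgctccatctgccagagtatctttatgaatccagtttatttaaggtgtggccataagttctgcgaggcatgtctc
Trim43b: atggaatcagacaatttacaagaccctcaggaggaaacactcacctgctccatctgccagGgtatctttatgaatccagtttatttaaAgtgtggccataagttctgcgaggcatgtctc
Trim43c: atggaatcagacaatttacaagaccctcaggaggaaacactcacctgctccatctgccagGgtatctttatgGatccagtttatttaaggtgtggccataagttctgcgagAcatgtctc

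In NBM no member reached an FPKM of 1, whereas 27 did in BM, 26 in SPL, 27 in BL and 28 in AT. The highest site differed between families. The Psg members together were highest in BM, with 54.1% of their summed FPKM over the 5 groups, and so were the Crisp members, with 44.0%. The Clca members were highest in SPL (66.3%), and the Vmn2r and Trim43 members in BL (59.3% and 72.6%). The sums of the last 2 families had the same order, BL, AT, BM, SPL and NBM. Since the rule used these FPKM values, the order is a description. The heat map of all members shows most clusters as bands of near-equal colour, which Clca3 and Crisp2 interrupt.

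**Figure D1:**
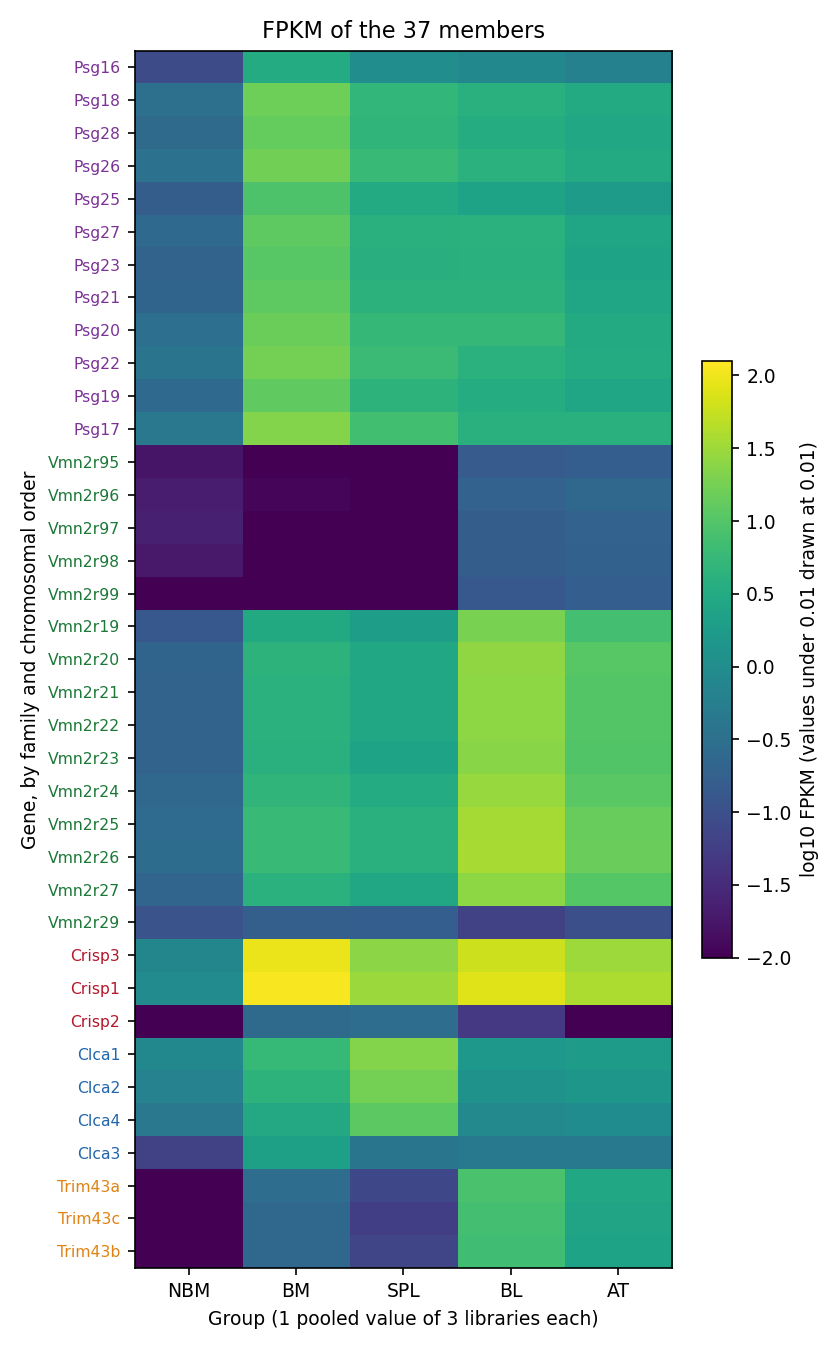
Colour gives the log10 FPKM of each of the 37 members (rows, coloured by family and in chromosomal order) in each group (columns, 1 pooled value of 3 libraries each). No member reaches an FPKM of 1 in NBM, and the 9 genes from Vmn2r19 to Vmn2r27 are brightest in BL.

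The authors compared the groups in pairs with Cuffdiff, and a gene is counted here as higher or lower where the authors' deposited table gives it a test and a q below 0.05. The q-values were adjusted over all 10 comparisons together. Against NBM, 30 of 32 tested members were higher in BM, where 8.17% of all tested genes were, and 27 of 27 in SPL, where 6.37% were. In BL 32 of 35 were higher (11.5% of all genes) and in AT 32 of 35 (7.94%). In none of these 4 comparisons was a member lower, where 7.85%, 6.19%, 22.9% and 15.5% of all tested genes were in BM, SPL, BL and AT. The rule kept genes by their highest level and the comparisons use the same values, so nothing is read from these counts. The 111 family genes under the limit were not tested by the authors in any comparison.

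Between sites the families parted. In SPL against BM, 3 of 32 tested members were higher (1.19% of all genes) and 15 lower (1.50%). In BL against BM, 17 of 37 were higher (10.5%) and 17 lower (22.8%), and in AT against BM, 17 higher (7.24%) and 19 lower (15.5%). BL against SPL gave 15 of 35 higher (10.2%) and 3 lower (23.1%), and AT against SPL 13 of 35 higher (7.20%) and 3 lower (17.9%). For AT against BL 10 of 35 members were lower (2.51% of all genes) and none higher (4.01%). Those 10 calls rested on the adjustment and the scaling: none was left when q was adjusted within the comparison or when folds were rescaled to the total estimated counts, and 1 when folds were centred on the median gene. The median log2 fold over all tested genes was -0.37 for BL against BM, -0.48 for AT against BM, -0.40 for BL against SPL, -0.52 for AT against SPL and -0.36 and -0.46 for BL and AT against NBM. Folds of BL and AT are to be read against those shifts.

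Crisp1 and Crisp3 were the most abundant members. CRISP proteins carry a CAP domain and a cysteine-rich domain, and Crisp1 is best known from the epididymis, where its protein coats sperm. Crisp1 had an FPKM of 0.937 in NBM, 116.8 in BM, 30.9 in SPL, 78.3 in BL and 39.4 in AT. Crisp3, the salivary gland member, had 0.768 in NBM, 94.1 in BM, 24.7 in SPL, 61.8 in BL and 31.7 in AT. Both were low in NBM, highest in BM, next in BL and lower in AT and SPL. The bounds of NBM (0.417 to 1.46 for Crisp1) lay below those of every LSC group, and those of BM (79.4 to 154) above those of SPL (16.4 to 45.4) and AT (16.7 to 62.1), but they overlapped with those of BL (44.9 to 112). By FPKM Crisp1 held rank 275 among all genes in BM and rank 8393 in NBM.

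The authors' deposited table gave Crisp1 and Crisp3 log2 folds of 6.94 to 6.96 in BM over NBM, with standard errors of 0.46 to 0.47. In the authors' deposited table SPL was above NBM by 5.01 to 5.05, BL by 6.33 to 6.39 and AT by 5.37 to 5.40, each with a Cuffdiff q listed as 0. Between sites, SPL over BM was -1.93 to -1.92 in the authors' deposited table (Cuffdiff q at most 6.04e-05). AT over BM was -1.57 for both (Cuffdiff q at most 0.0078) in the authors' deposited table, a call that was lost when folds were centred on the median gene. BL over SPL was 1.32 to 1.34 (Cuffdiff q at most 0.0225) in the authors' deposited table. The differences of BL from BM, AT from SPL and AT from BL did not pass. Crisp2, which encodes a protein of the sperm acrosome and tail, stood apart at 0.00286 in NBM, 0.260 in BM, 0.289 in SPL, 0.0479 in BL and 0.0075 in AT. It had at most 21.3 estimated counts in any group. The authors' deposited table called it lower in BL than in BM (log2 fold -2.44 ± 0.92 SE, Cuffdiff q = 0.0392) and lower in AT than in BM, where AT had 0.935 estimated counts and no fold is given. The call in BL was lost under both other scalings. Crisp4 was under the limit at 0.0052.

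**Figure D2:**
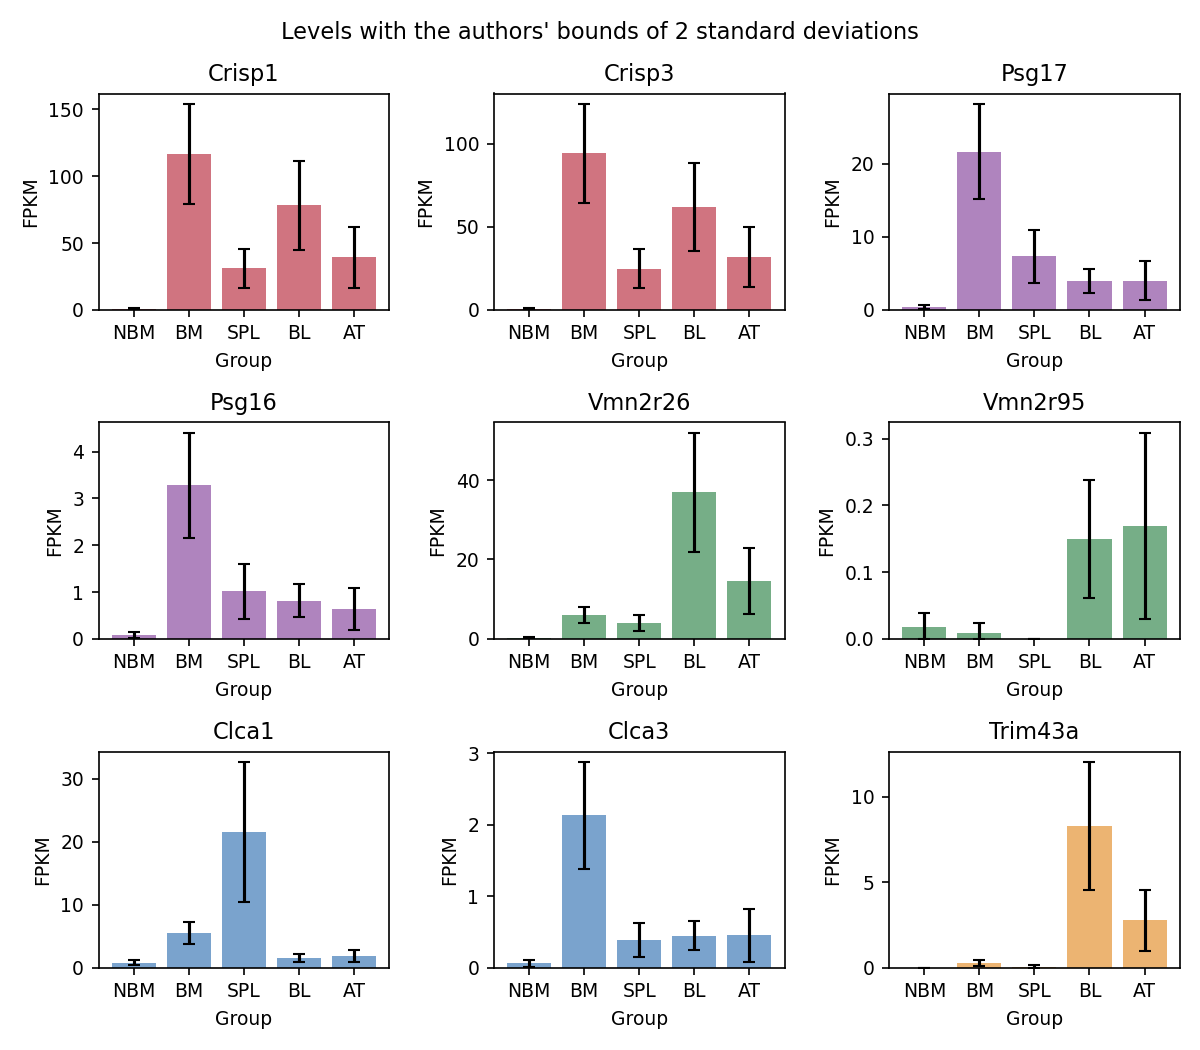
Bars give the FPKM of 9 members in each group (linear axis from 0, scaled for each gene), and whiskers the authors' bounds of 2 standard deviations on either side. Crisp1 and Crisp3 have the same outline, Clca1 peaks in SPL and Clca3 in BM, and Vmn2r26 and Trim43a peak in BL.

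The Psg genes, whose proteins are among the most abundant secreted by the placenta, were all above 1 FPKM in BM and SPL. Psg17 had an FPKM of 0.436 in NBM, 21.7 in BM, 7.31 in SPL, 3.98 in BL and 3.99 in AT. Its bounds in BM (15.1 to 28.2) lay above those of the other 3 LSC sites, which overlapped with each other, and NBM (0.165 to 0.708) lay below all. Psg17 is the gene at the Mill2 end of a row of 11 on chromosome 7, and the other 10 were also highest in BM and lowest in NBM.

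At the far end of that row, Psg18 had an FPKM of 0.324 in NBM, 15.5 in BM, 5.26 in SPL, 4.06 in BL and 3.19 in AT. Next to it, Psg28 had 0.266, 13.7, 4.86, 3.47 and 2.75 FPKM in the same order of groups. Psg26 followed with 0.342, 16.9, 5.82, 4.10 and 3.23 FPKM. In all 3 the order was BM, SPL, BL, AT and NBM. Psg25, the lowest of the row in every group, had 0.160, 8.87, 3.25, 2.39 and 1.84 FPKM. Psg22 had 0.373, 17.2, 6.12, 4.22 and 3.29 FPKM. Psg19, whose span in the files is also that of Sycp1-ps1, had 0.248, 12.7, 4.53, 3.43 and 2.60 FPKM. These 3 kept the same order of groups too. In the middle of the row BL was relatively higher. Psg27 had 0.250, 12.0, 3.99, 4.12 and 2.54 FPKM. Psg23 had 0.204, 10.7, 3.72, 4.08 and 2.38 FPKM, and Psg21 0.213, 11.9, 4.28, 4.38 and 2.66 FPKM. In these 3 BL was slightly above SPL, a difference well within the bounds. Psg20 had 0.314, 15.2, 5.47, 5.32 and 3.26 FPKM, with BL close to SPL.

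The ratio of Psg17 to Psg23 was 2.14 in NBM, 2.02 in BM, 1.96 in SPL and 1.68 in AT but 0.976 in BL. That of Psg20 to Psg22 was 0.842 to 0.990 in the other groups and 1.26 in BL. Psg27, Psg23, Psg21 and Psg20 lie side by side, and no test of such a ratio between genes is in the deposited tables. All 11 genes were higher than NBM in each LSC group in the authors' deposited table, with log2 folds of 5.53 to 5.80 in BM, 4.0 to 4.35 in SPL, 3.19 to 4.36 in BL and 3.14 to 3.64 in AT (largest Cuffdiff q 0.00057). They were also all lower than in BM at the other sites, by log2 folds of -1.59 to -1.45 in SPL, -2.44 to -1.39 in BL and -2.44 to -2.16 in AT, in the authors' deposited table (largest Cuffdiff q 0.00607). None of the 11 differed in BL against SPL, AT against SPL or AT against BL at that threshold. For SPL against BM, 5 of the 11 (Psg18, Psg20, Psg21, Psg25 and Psg28) were lost when q was adjusted within the comparison. Over the 12 Psg members the median log2 fold of BM over NBM was 5.63 in the authors' deposited table, against -0.03 over all tested genes. The rule chose the members by these same values, so nothing is read from that contrast.

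Psg16 (chr7:17074040-17098971), also known from the brain, lies more than 1 Mb from the row, beside Ceacam3. It had an FPKM of 0.0862 in NBM, 3.28 in BM, 1.01 in SPL, 0.815 in BL and 0.637 in AT. The pattern was that of the row at a lower level, with BM (2.16 to 4.4) above all other bounds. In the authors' deposited table its log2 fold of BM over NBM was 5.25 ± 0.61 (SE, Cuffdiff q listed as 0). Ceacam3, a relative of the Psg genes and its neighbour, had 0.0932, 3.63, 1.37, 0.670 and 0.659 FPKM, which is 0.822 to 1.35 times Psg16. The next gene, Psg29, was under the limit at 0.024 in BM. Other Ceacam genes had another order: Ceacam1, an adhesion receptor of many cell types, had 6.47 FPKM in NBM, 3.61 in BM, 4.08 in SPL, 39.2 in BL and 24.2 in AT. Ceacam2 (up to 28.7 in BL) and Ceacam10 (up to 22.3 in BL) were also highest in BL, and 8 of the 15 Ceacam genes reached 0.1 in any group. In the authors' deposited table (Cuffdiff q below 0.05) 7 of the 15 were higher and none lower in BL than in NBM, and 1 was higher and none lower in BM than in NBM.

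The 9 genes from Vmn2r19 to Vmn2r27 fill 923 kb of chromosome 6, between Clec4e and Cd163. They encode receptors of the class with a large extracellular domain, which couple to the G protein subunit Gnao1 in vomeronasal neurons. Vmn2r26 had an FPKM of 0.282 in NBM, 6.08 in BM, 4.01 in SPL, 36.9 in BL and 14.6 in AT. Its bounds in BL (21.8 to 51.9) lay above those of BM (4.06 to 8.09) and SPL (2.02 to 6.0) and overlapped slightly with those of AT (6.29 to 22.8), and NBM (0.142 to 0.423) lay below all. Vmn2r25 had 0.270, 5.93, 3.96, 35.8 and 14.1 FPKM in NBM, BM, SPL, BL and AT. Vmn2r24 had 0.235, 4.86, 3.34, 29.4 and 11.4 FPKM. In each the order was BL, AT, BM, SPL and NBM, and the remaining 6 kept it. Vmn2r20 had 0.208, 4.43, 2.87, 26.3 and 10.7 FPKM. Vmn2r21 and Vmn2r22 were nearly equal at 0.205 and 0.203 in NBM, both 4.22 in BM, 2.77 and 2.75 in SPL, 25.3 in BL and 10.2 in AT. Vmn2r23 had 0.201, 3.95, 2.38, 23.8 and 9.64 FPKM. These 4 lie side by side. Vmn2r27, next to Cd163, had 0.215, 4.09, 2.77, 25.5 and 10.5 FPKM. Vmn2r19, next to Clec4e, had 0.134, 3.08, 2.00, 18.7 and 7.40 FPKM and was the lowest in every group.

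Between 59.2% and 59.7% of the summed FPKM of each of these 9 genes lay in BL. All 9 were higher than NBM in every LSC group in the authors' deposited table, by log2 folds of 4.25 to 4.52 in BM, 3.57 to 3.90 in SPL, 6.88 to 7.13 in BL and 5.58 to 5.79 in AT (largest Cuffdiff q 1.70e-09). BL was above BM by 2.57 to 2.64 and above SPL by 3.14 to 3.32 in the authors' deposited table (largest Cuffdiff q 2.18e-09). AT was above BM by 1.24 to 1.36 (Cuffdiff q 0.0254 to 0.0440) and above SPL by 1.78 to 2.02 (largest Cuffdiff q 0.0083) in the authors' deposited table. SPL and BM did not differ at that threshold in any of the 9. AT was below BL, with log2 folds of -1.36 to -1.28 and Cuffdiff q of 0.0350 to 0.0503 in the authors' deposited table, so that 8 of the 9 passed. At a q below 0.01 none of the 9 stayed called for AT against BM.

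**Figure D3:**
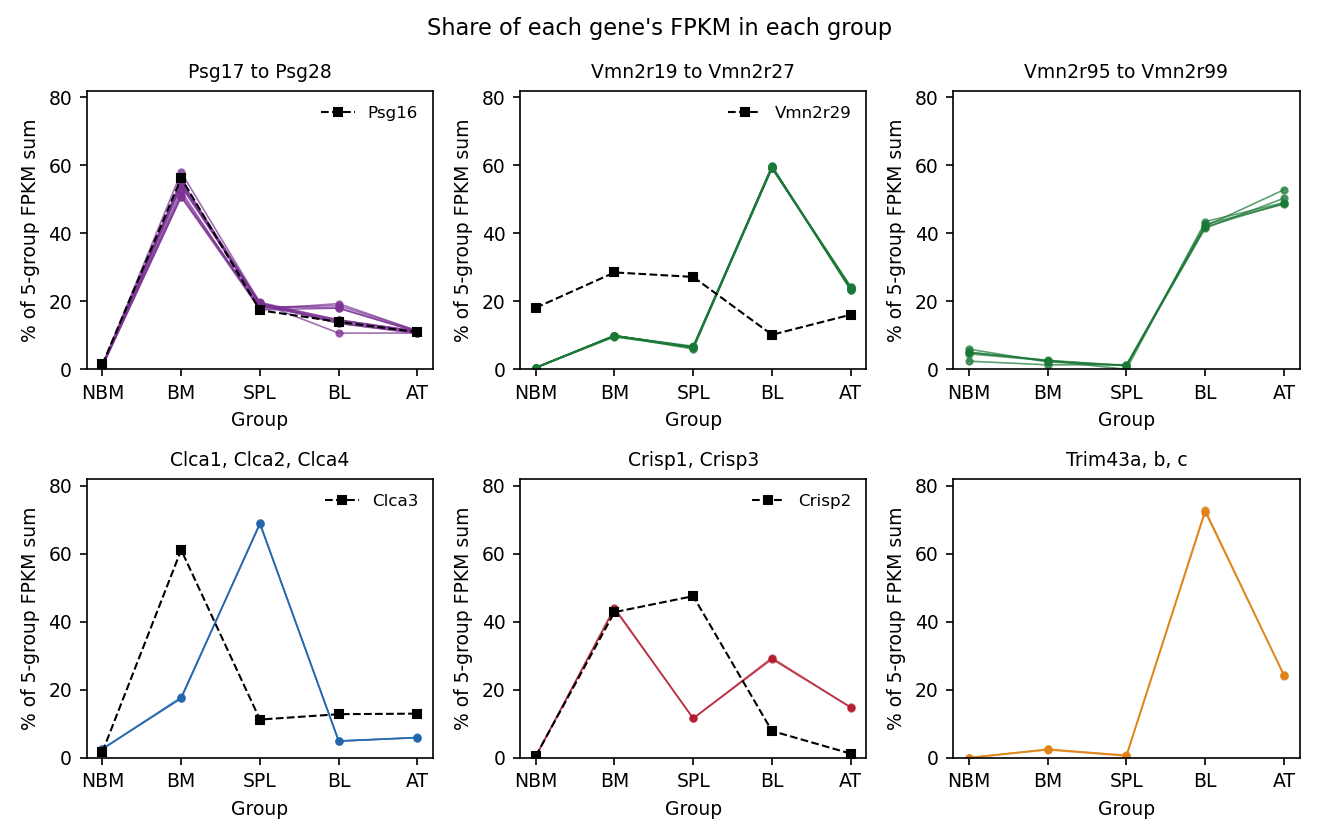
Each line gives the percent of 1 gene's summed FPKM over the 5 groups that lies in each group, with coloured circles for the genes of a cluster that moved together and black squares for a less similar relative. The coloured lines lie within 1.09 percentage points of each other in every group for Vmn2r19 to Vmn2r27 and closer for the Clca, Crisp and Trim43 sets, whereas those of Psg17 to Psg28 run from 10.6% to 19.3% in BL and from 50.8% to 57.9% in BM. The black lines of Clca3, Crisp2 and Vmn2r29 leave the coloured ones.

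Vmn2r95 to Vmn2r99, 5 receptors in a cluster on chromosome 17, were near the limit. Vmn2r96, the highest, had an FPKM of 0.0215 in NBM, 0.0119 in BM, 0.0050 in SPL, 0.195 in BL and 0.236 in AT. Over the 5 genes the range was 0.0077 to 0.0233 in NBM, 0.0042 to 0.0119 in BM, 0 to 0.0050 in SPL, 0.135 to 0.195 in BL and 0.169 to 0.236 in AT. They rested on 25.8 to 33.5 estimated counts each in BL and 38.2 to 49.0 in AT, against at most 4.54 in NBM, 1.77 in BM and 0.316 in SPL. In SPL the estimated count was the same 0.316 for Vmn2r96, Vmn2r97, Vmn2r98 and Vmn2r99, while Vmn2r95 was listed at 0. The authors' deposited table called all 5 higher in BL and AT than in NBM and BM. For BL and AT against SPL it called only Vmn2r95 (Cuffdiff q = 0.00337 and 0.0391), and the other 4 had q-values of 0.121 to 0.178 in the authors' deposited table. Where NBM had over 3 counts, the log2 fold over NBM in the authors' deposited table was 2.82 to 3.18 in BL and 3.04 to 3.46 in AT (standard errors 0.88 to 1.08). Vmn2r29, the only Vmn2r member on chromosome 7 (chr7:7212996-7278289), lies near Vmn2r30, which was under the limit. Vmn2r29 had 0.112, 0.177, 0.169, 0.0633 and 0.0999 FPKM. It was the 1 member called in no comparison, with at most 16.9 estimated counts in a group. Of the 107 Vmn2r genes under the limit, 2 were at 0 in every group.

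The Clca symbols of the files are older ones: Clca1, Clca2 and Clca4 are Clca3a1, Clca3a2 and Clca3b in RefSeq, and Clca3 is Clca1, the goblet cell protein once called gob-5. All 4 lie within 302 kb on chromosome 3. Clca1, known from vessels and several epithelia, had an FPKM of 0.818 in NBM, 5.50 in BM, 21.6 in SPL, 1.53 in BL and 1.87 in AT. Clca2, known from the mammary gland, had 0.668, 4.4, 17.4, 1.25 and 1.5 FPKM. Clca4 had 0.437, 3.02, 11.6, 0.840 and 1.00 FPKM. SPL was highest and BM next in all 3, and NBM, BL and AT were low. For Clca1 the bounds of SPL (10.5 to 32.7) and of BM (3.75 to 7.25) overlapped with those of no other group.

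In the authors' deposited table the 3 genes were above NBM by log2 folds of 4.70 to 4.74 in SPL and 2.72 to 2.79 in BM (largest Cuffdiff q 1.95e-09). Their log2 folds over NBM in BL, 0.90 to 0.94, and in AT, 1.17 to 1.20, did not pass in the authors' deposited table. Both became calls when folds were centred on the median gene, and those of AT also under scaling to total counts. SPL was above BM by 1.95 to 1.98 in the authors' deposited table (largest Cuffdiff q 0.00015). B cell genes moved with that difference: Ms4a1 was at 3.22 FPKM in SPL against 0.0942 in BM, and Cd79a at 2.58 against 0.289. Of the 4 T cell genes, 3 were higher in SPL than in BM in the authors' deposited table (Cuffdiff q below 0.05). In NBM Ms4a1 was at 1.17 and Cd79a at 2.39. Their part in the Clca values was not tested. BL was below SPL by -3.82 to -3.79 and AT by -3.54 to -3.53 in the authors' deposited table (largest Cuffdiff q 7.28e-09). These were the members that were higher in SPL than in BM, where the Psg members and Crisp1 and Crisp3 were lower.

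Clca3 had another order, with an FPKM of 0.0616 in NBM, 2.13 in BM, 0.393 in SPL, 0.448 in BL and 0.453 in AT. BM (1.39 to 2.88) lay above all other bounds, and SPL, BL and AT lay within each other's bounds. In the authors' deposited table its log2 fold was 5.11 ± 0.62 (SE) for BM over NBM (Cuffdiff q = 5.49e-14) and -2.44 ± 0.51 for SPL over BM (Cuffdiff q = 3.72e-05). The ratio of Clca1 to Clca3 went from 2.58 in BM to 55.0 in SPL. Between Clca4 and Clca3, Clca6 (0.0291 at most) was under the limit, as was Clca5 (0.0384) past the end of the cluster.

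Trim43a, Trim43b and Trim43c lie over 512 kb of chromosome 9, with Bcl2a1a and Bcl2a1d, members of an anti-apoptotic gene family, among them. Trim43a had an FPKM of 0.00258 in NBM, 0.291 in BM, 0.0765 in SPL, 8.29 in BL and 2.78 in AT. Trim43b had 0.0042, 0.239, 0.0717, 7.02 and 2.35 FPKM. Trim43c, whose span in the files is also that of 9330159M07Rik, had 0, 0.245, 0.0575, 7.59 and 2.52 FPKM. BL was highest, AT next and the rest low. The estimated counts were under 1 in NBM, 3.38 to 5.02 in SPL and 29.3 to 33.1 in BM, against 1106 to 1182 in BL and 438 to 473 in AT. With so few counts in NBM no fold over it is given. The authors' deposited table put BL above BM by log2 folds of 4.83 to 4.96 and above SPL by 6.61 to 7.05 (largest Cuffdiff q 1.39e-07). It put AT above BM by 3.26 to 3.37 and above SPL by 5.04 to 5.46 (largest Cuffdiff q 0.00028 in the authors' deposited table). AT was below BL by -1.59 to -1.57, with Cuffdiff q of 0.0282 to 0.0572, and 2 of the 3 passed in the authors' deposited table. Bcl2a1a, between the Trim43 genes, had 52.5, 11.0, 19.1, 102.6 and 67.1 FPKM, so BL and AT were high there too, but NBM was above BM and SPL.

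How far relatives kept a fixed ratio across the groups differed between pairs. Crisp1 was 1.22 to 1.27 times Crisp3, Clca1 1.22 to 1.25 times Clca2, Vmn2r26 1.01 to 1.05 times Vmn2r25 and Vmn2r26 1.97 to 2.11 times Vmn2r19. By contrast Psg17 was 0.976 to 2.14 times Psg23, and Clca1 2.58 to 55.0 times Clca3. To describe this, the ratio of each pair of relatives was taken in every group where both had more than 3 estimated counts, and its highest value was divided by its lowest. Over 104 pairs whose coding sequences were more than 75% identical this spread ran from 1.01 to 2.26, with a median of 1.18. Over 16 pairs under 75% identity it ran from 1.38 to 21.4, with a median of 1.77. The pairs share genes and groups, so they are not independent and no test was made. The Psg pairs overlapped between both classes: 1.07 to 2.26 for the 55 pairs of the row, which were 79.3% to 97.5% identical, and 1.38 to 2.18 for the 11 pairs with Psg16, which were 62.4% to 67.3% identical. Clca3, at 60.5% to 64.6% identity, gave 20.9 to 21.4 with its 3 neighbours, and Crisp2, at 65.4% to 69.1%, gave 15.1 to 15.2 with Crisp1 and Crisp3.

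**Figure D4:**
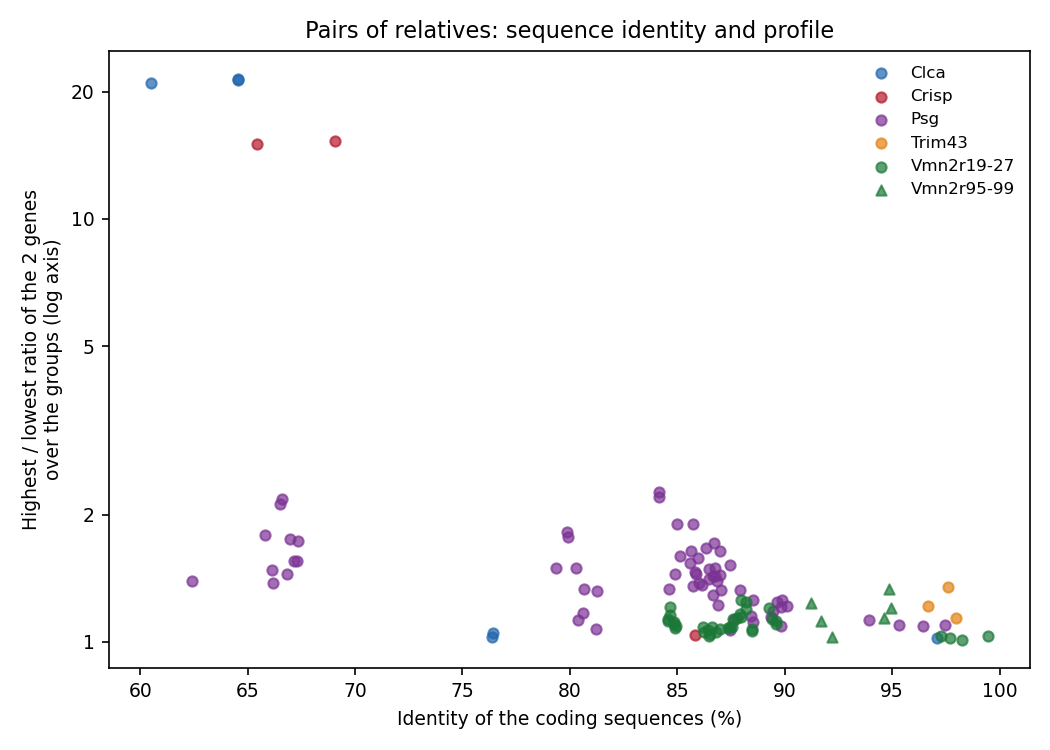
Each point is a pair of relatives in a cluster, with the identity of their coding sequences (percent) against the highest over the lowest of the ratio of their FPKM over the groups (log axis). The Clca and Crisp points at the upper left are the pairs with Clca3 and Crisp2, and all pairs above 75% identity lie at 2.26 or below.

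Identity over a gene and exact matches over the length of a read are different quantities. Crisp1 and Crisp3 were 85.8% identical, and only 0.730% of the 50-base windows of the Crisp1 coding sequence occur unchanged in Crisp3 or Crisp2, although 29.9% do with up to 2 differences and 61.3% with up to 5. For Vmn2r27 7.33% of windows occur unchanged in another gene of its cluster, and for Vmn2r21 98.8%, and the ratio of Vmn2r21 to Vmn2r27 was 0.953 to 1.03 over the groups. In the Psg row the share ran from 7.97% for Psg17 to 58.2% for Psg21, and Psg21 and Psg23 were the most alike at 97.5% identity. Trim43a had 46.5%, Clca1 31.2% and Clca3 none. Neither the length of the authors' reads nor the way reads with several matches were shared out is stated in the sources used here. The value of 1 copy is therefore uncertain, and whether shared reads set the common profile was not tested. The family sums are less open to that split.

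Promoters were compared because many copies had like profiles. RefSeq gave 300 bases, from 250 before to 50 after the start, for 30 of the 37 members on GRCm38.p6. Clca3, Psg16, Psg19, Psg22, Trim43b, Trim43c and Vmn2r21 had no entry. Crisp1, at chr17:40319158-40319457 (minus strand), and Crisp3, at chr17:40242239-40242538 (minus strand), were 95.7% identical there, more than in their coding sequences. Capitals mark matches, on either strand, to the motifs searched.

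Crisp1 promoter: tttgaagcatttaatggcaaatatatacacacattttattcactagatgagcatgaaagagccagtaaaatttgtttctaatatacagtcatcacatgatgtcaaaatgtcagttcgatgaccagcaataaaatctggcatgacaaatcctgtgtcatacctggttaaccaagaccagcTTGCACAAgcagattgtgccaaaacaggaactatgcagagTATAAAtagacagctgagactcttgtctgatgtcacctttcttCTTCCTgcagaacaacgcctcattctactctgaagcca
Crisp3 promoter: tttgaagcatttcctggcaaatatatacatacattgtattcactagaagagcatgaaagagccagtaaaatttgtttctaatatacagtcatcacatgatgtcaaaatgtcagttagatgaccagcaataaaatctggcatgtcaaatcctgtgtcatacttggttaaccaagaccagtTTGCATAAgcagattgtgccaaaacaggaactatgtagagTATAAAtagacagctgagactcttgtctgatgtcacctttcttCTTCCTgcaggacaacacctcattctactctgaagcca

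Both hold TATAAA from 31 bases before the start, TTGCNNAA from 71 bases before it and AGGAAG, read on the other strand, from 12 bases after it. Crisp2 shared 51.0% with Crisp1 and 51.3% with Crisp3. The Clca genes with like profiles were less alike there than Crisp1 and Crisp3. Clca1 shared 51.9% with Clca2 and 52.5% with Clca4, and Clca2 shared 70.5% with Clca4. The last 25 bases of the Clca2 promoter and 33 of that of Clca4 were coding, and none for Clca1. Their stretches may therefore not match in place. The pair Vmn2r26, at chr6:124024508-124024807 (plus strand), and Vmn2r25, at chr6:123853141-123853440 (minus strand), lies on opposite strands and was 90.7% identical. In both the RefSeq start is the first coding base, so the last 50 bases of the lines that follow are the first 50 of the coding sequences shown earlier and no untranslated leader is included. Over the 250 bases before the start the pair was 89.7% identical.

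Vmn2r26 promoter: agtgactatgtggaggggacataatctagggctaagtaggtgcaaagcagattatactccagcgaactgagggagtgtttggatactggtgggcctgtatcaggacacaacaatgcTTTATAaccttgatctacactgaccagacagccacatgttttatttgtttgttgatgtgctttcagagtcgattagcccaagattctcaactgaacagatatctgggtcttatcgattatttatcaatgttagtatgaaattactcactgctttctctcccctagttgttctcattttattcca
Vmn2r25 promoter: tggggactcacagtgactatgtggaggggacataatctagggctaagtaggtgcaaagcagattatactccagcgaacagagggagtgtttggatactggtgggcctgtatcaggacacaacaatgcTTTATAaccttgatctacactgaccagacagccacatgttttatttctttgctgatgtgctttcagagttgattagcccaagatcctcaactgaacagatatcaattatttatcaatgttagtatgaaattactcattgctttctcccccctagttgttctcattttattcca

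The match in both is TATAAA on the other strand, from 134 bases before the first coding base in Vmn2r26 and 123 in Vmn2r25. For 13 of the 30 members the RefSeq start was the first coding base, among them all 8 of Vmn2r19 to Vmn2r27 with an entry, 4 of the 5 from Vmn2r95 to Vmn2r99 and Psg20. Distances there are from the first coding base, and where transcription begins is not known from these files. Over Vmn2r19 to Vmn2r27 identity of the 300 bases was 74.5% to 96.0% (28 pairs), and 72.3% to 95.2% over the 250 before the start alone. Over the Psg row it was 53.0% to 96.7% (36 pairs), and 52.3% to 96.4% before the start alone. The low end was made by Psg20, at 53.0% to 55.6% with the others, whereas pairs without it shared 68.1% or more. Of the Psg genes only Psg20 has its start at the first coding base, so its 300 bases may not be the matching stretch. Searched on both strands, TATAAA was in 13 of the 30 member promoters and in 14.2% of all 27025 promoters of this length. TTGCNNAA, letters of the CEBP motif, was in 10 and in 10.8% of all. AGATAA, letters bound by GATA factors, was in 8 and in 11.4% of all. AGGAAG, with the core of the ETS motif, was in 8 and in 35.1% of all. TGTGGT, the RUNX motif, was in 7 and in 16.9% of all. The motif of STAT factors, TTCNNNGAA, was in 5 and in 8.47% of all. The joint motif of HOX and MEIS factors, TGATTTAT, was in none of the 30 and in 1.04% of all. Since the members are copies of each other, these counts are not of independent sequences, and a match is no site of binding.

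Markers of the cells in which these families are known to be used differed in level between lists. Of 12 trophoblast genes 4 reached 0.1 and none 1, with sums of 0.0563 FPKM in NBM and 0.425 to 1.00 in the LSC groups, led by Plac1 (0.407 in SPL), Syna (0.352 in BM), Prl2c2 (0.338 in BM) and Synb (0.174 in BM). Tpbpa, Gcm1 and Hand1 stayed at or under 0.0201, and Prl8a9 was at 0 in every group. These sums stood beside 159.6 for the Psg members in BM. Syna, which encodes a fusion protein of the placenta, had 0.0173 FPKM in NBM, 0.352 in BM, 0.107 in SPL, 0.0731 in BL and 0.126 in AT, and so was highest in BM as the Psg members were. The part of these genes' cells in the Psg values was not tested. Of 9 genes listed for vomeronasal neurons, not all of them particular to these neurons, none reached 1. Their sum was 1.07 to 1.29 in every group, but it joined genes that moved in opposite ways. The channel gene Trpc2, which these neurons need for signalling, was at 0.899 in NBM, 0.698 in BM, 0.736 in SPL, 0.181 in BL and 0.207 in AT, low where Vmn2r26 was high. Adcy3, an adenylate cyclase of olfactory neurons, went the other way, at 0.0505 in NBM, 0.103 in BM, 0.0673 in SPL, 0.547 in BL and 0.743 in AT. Gnao1 was also highest in BL and AT, at 0.218 in NBM, 0.193 in BM, 0.158 in SPL, 0.340 in BL and 0.303 in AT. Omp was at most 0.110.

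Of 9 spermatid genes none reached 1 (sums of 0.314 to 1.07). Ldhc was highest in SPL at 0.594, against 0.0838 in NBM, and Tnp2 in BM at 0.581, against 0.210 in NBM. Adam2, Zpbp and Spaca1 were highest in NBM. Of the 9, 1 was higher in SPL than in NBM and none lower in the authors' deposited table (Cuffdiff q below 0.05). The part of spermatids in the Crisp values was not tested. Of 10 genes of secretory epithelium, Krt8 (2.73 in BL) and Krt18 (2.01 in NBM) reached 1, and the goblet cell mucin genes Muc2 and Muc5ac stayed at or under 0.0135. Epcam, of the same list, was at 0.0798 in NBM, 0.525 in BM, 0.226 in SPL, 0.197 in BL and 0.236 in AT. Like Clca3 it was lowest in NBM and highest in BM. Of the 10, 1 was higher and 1 lower in BM than in NBM in the authors' deposited table (Cuffdiff q below 0.05). The part of epithelial cells in the Clca values was not tested. Endothelial genes summed to 8.02 to 24.5, nearly all of it Pecam1, which blood cells also express. Cdh5, restricted to endothelium, was at 0.00546 in SPL (0.686 estimated counts), where Clca1 was highest, against 0.342 in NBM and 0.276 in AT. Lyve1, of the same list, was highest in SPL at 0.0552 (3.90 estimated counts), against 0.0050 in NBM and 0.0492 in AT. Pecam1, Kdr and Prox1 were lowest in SPL, where Kdr had 0.640 and Prox1 0.686 estimated counts. Prox1 was at 0.00601 in SPL and 0.00643 in NBM, which is near equal. With so few counts, nothing is read from Cdh5, Kdr or Prox1 in SPL. The part of endothelial cells in the Clca values was not tested. The 24 genes of the cleavage-stage embryo summed to 10.1 to 22.0 FPKM, above the Trim43 sum in NBM, BM, SPL and AT, and 6 of them reached 1 (Tdpoz1, Tdpoz2, Tdpoz3, Tdpoz4, Tcstv1 and Tcstv3). Tcstv3 was highest in NBM at 5.04. The Tdpoz genes were 0.909 to 4.63 in all groups, highest in BL as Trim43 was, but lowest in AT. Tdpoz2 was at 4.63 in BL, 4.49 in NBM and 2.68 in AT. Usp17la to Usp17le, deubiquitinase genes of the same list, were high where Trim43 was, at 0 to 0.0078 in NBM, 0.0268 to 0.0505 in BM and 0 to 0.0236 in SPL against 0.0639 to 0.102 in BL and 0.195 to 0.257 in AT, but with AT above BL. They had at most 13.1 estimated counts each in BL and 47.6 in AT. Of the 24 genes, 5 were higher in AT than in NBM in the authors' deposited table (Cuffdiff q below 0.05) and none in BL. The part of such cells in the Trim43 values was not tested. Zscan4a to Zscan4f and Dux, which mark that stage most narrowly, stayed at or under 0.0188.

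Relatives of the members outside the 5 families showed how far such genes were read in these cells. None of 196 Vmn1r and none of 15 Taar receptor genes reached 0.1 FPKM in any group. Of 1097 Olfr genes 47 (4.28%) did, and none reached 1. All 3 Fpr-rs genes reached 0.1, led by Fpr-rs4 with 0.599 in NBM, 0.305 in BM, 0.377 in SPL, 2.13 in BL and 1.61 in AT. Fpr-rs genes are relatives of the neutrophil formyl peptide receptors and are used both in vomeronasal neurons and in leukocytes. All 3 were higher in BL than in NBM, and none in BM, SPL or AT, in the authors' deposited table (Cuffdiff q below 0.05). Of the Olfr genes, 8 were higher and 1 lower in BL than in NBM there, and 4 higher and 2 lower in BM. Of 62 Trim genes other than Trim43, 43 reached 0.1, led by Trim12a, Trim30a, Trim30d and Trim12c, and none of those 4 was highest in BL. Of the 62, 5 were higher and 7 lower in BL than in NBM in the authors' deposited table (Cuffdiff q below 0.05). Of 10 CAP genes, which share a domain with Crisp, 5 reached 0.1, led by Glipr2 (137 in BL and 24.7 in NBM) and Glipr1 (40.1 in BM). Because Clca proteins act on chloride conductance, 7 chloride channel genes were also looked at, by function and not as relatives. Of these 6 reached 0.1, led by Clic1 (122 to 197) and Ano6 (2.43 to 4.92).

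Of the genes within or beside the clusters that are not members, 28 of 46 reached an FPKM of 0.1, and 9 of those 28 had the same highest group as the members there. They were Sep15 and Odf2l by the Clca genes, Ceacam3 by Psg16, Mill1 and Mill2 by the Psg row, and Bcl2a1a, Bcl2a1b, Bcl2a1d and 9330159M07Rik by the Trim43 genes. The last, whose span is also that of Trim43c, had 0.161, 0.246, 0.131, 0.926 and 0.486 FPKM in NBM, BM, SPL, BL and AT. Bcl2a1a, Bcl2a1b and Bcl2a1d were near equal, at 102.6 to 110.8 FPKM in BL, so they may not count separately. The share of all genes with each highest group was not worked out, so nothing is read from the count of 9. Vmn2r93, Vmn2r94, Vmn2r100 and Vmn2r101, which flank Vmn2r95 to Vmn2r99, were under the limit but also higher in BL (0.0159 to 0.0647) and AT (0.0188 to 0.0426) than in NBM, BM and SPL (0 to 0.0065), on at most 12.1 estimated counts each. Pgk2, next to Crisp3, had an FPKM of 48.1 in NBM, 62.5 in BM, 68.8 in SPL, 37.4 in BL and 41.0 in AT. Rhag, the erythroid gene on the other side of the Crisp cluster, had 1.53, 11.3, 22.0, 1.61 and 1.39 FPKM. Its order resembled that of Clca1 and not that of Crisp1. Mill1 and Mill2, on either side of the Psg row, were at 0.00297 and 0.0048 in NBM. Mill2 was at 0.491 in BM, 0.386 in SPL, 0.265 in BL and 0.410 in AT, so both ends of the row were lower in NBM than in the LSC groups. Clec4e, a pattern receptor gene of myeloid cells before Vmn2r19, had 5.54, 19.5, 12.7, 30.9 and 58.3 FPKM, with AT above BL, and Cd163, a macrophage gene after Vmn2r27, was at most 0.893.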

How the data were processed

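The authors sequenced 15 libraries in 5 groups (SMARTer low-input chemistry and Nextera XT, per the labels' protocols). Reads were trimmed with Trimmomatic 0.32 and processed with Cufflinks 2.0.2 and Cuffdiff on mm10, per the submitters' processing notes. Not given in the sources used here: aligner, annotation, read length, strand, and how reads with several matches were handled. Deposited by the authors were 1 pooled FPKM per gene and group with lower and upper bounds, 1 estimated count per gene and group, and for each pair of groups a log2 fold, p-value and q-value, per the file headers.

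Samples were grouped by their labels. A test on counts per library was planned, but the deposited columns are pooled, so the authors' tables were copied as theirs and no test was run here. Standard errors are the deposited log2 fold over its statistic. The normal tail of that statistic gave the deposited p-value to within 2.85e-06, and the q-value a Benjamini-Hochberg adjustment over 127922 tests in 10 comparisons to within 1.70e-06. The authors' estimated counts set a floor: where a group had 3 or fewer, no fold is given. Over tested genes the median standard error ran from 0.40 (BM over NBM) to 0.59 (AT over SPL), which limits what could be called. Values and calls are given for each member with an FPKM of 1 or more, called, or among the 5 highest of its family, and up to 4 genes per neighbouring list by level, and others were chosen after their values were seen. Members, lists and rules were chosen with earlier results of these data known.

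All 37 members matched RefSeq by symbol and position, 4 under a newer symbol. Coding sequences came from GENCODE M21, and identity is matches over columns of a global alignment (edlib 1.3.9.post1). Windows of 50 bases were taken every 5 bases. Starts in the files count from 0 and are printed from 1. The recomputed adjustment and the window search were tested on simulated data. Alternatives were a q below 0.01, adjustment within a comparison, other scalings, other limits of FPKM or counts, and sums over other genes. Python 3.11.15, pandas 2.3.3, numpy 2.4.6 and scipy 1.17.1 were used. Protein sequences were not used here.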

Additional observations from a re-analysis of the deposited data

How the results depend on the processing

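Counts of called members kept within 1.5 times their value in all 10 comparisons and both directions, except for AT over BM and AT over BL. In AT over BM the members called higher fell from 17 to 6 at a q below 0.01. In AT over BL those called lower went from 10 to 0 at a q below 0.01, 0 with adjustment within the comparison, 0 with scaling to total estimated counts and 1 with centring on the median fold. No call changed direction under any of these settings. Leaving out genes that merge or that differ between tables changed no count. The number of members was 37, and the 4 other limits of FPKM or counts gave values within 1.5 times of it. With estimated counts scaled to equal depth in place of FPKM, the share of a family's sum in its highest group was 55.9% for Psg, 57.7% for Vmn2r, 43.4% for Crisp, 61.5% for Clca and 69.5% for Trim43, and without its highest member 53.5% for Psg and 64.5% for Clca, with the same highest group each time. The cause was not tested. Windows shared with relatives, with lengths chosen after seeing the data, ranged for Crisp1 from 0 (75 bases) to 4.29% (36 bases). Between the same lengths they ranged from 1.48% to 15.5% for Psg17 and from 18.4% to 41.5% for Clca1. For Trim43a the range was 29.2% to 56.9% and for Vmn2r26 31.5% to 54.9%. No paired analysis was possible because the deposited columns are pooled over the 3 libraries and carry no replicate number, and leaving out a replicate could not be run for the same reason. Depth limits Crisp2, Vmn2r29, Vmn2r95 to Vmn2r99 and, outside BL and AT, the Trim43 genes, which rest on few counts.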
